A study of Mus musculus with 60 samples.

Results

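The T cell receptor (TCR) repertoire of CD8 T cells from STAT3-deficient (STAT3ko) donors was compared with that of wild-type (WT) donors on day 6 after allogeneic hematopoietic cell transplantation (HCT). The members were the libraries labelled CD8, day 6, and WT or STAT3ko in the tables of the TCR α chain (TCRA) and the TCR β chain (TCRB), 16 of the 60 libraries of the series. In each table these were 4 WT and 4 STAT3ko libraries, numbers 1 and 2 from liver and numbers 1 and 2 from gut. Libraries of the 2 genotypes were paired by tissue and number. The linear model fits below (limma) also used the 4 day 6 libraries per table of donors lacking both STAT3 and PD-1 (STAT3koPD-1ko), to estimate the spread. The study asked how loss of STAT3, alone or with PD-1, in donor T cells changed their repertoire in graft-versus-host disease. All donors were C57BL/6 mice. STAT3ko T cells came from Stat3 fl/fl mice with a CD4-Cre transgene, which deletes Stat3 in αβ T cells that pass the CD4-expressing stage in the thymus, those that become CD8 T cells included. Both groups of recipients were lethally irradiated BALB/c mice given T cell-depleted bone marrow of WT C57BL/6 mice and CD90.2+ donor T cells. Each day 6 library pooled lymphocytes of 3 recipients, sorted as H-2Kb+TCRβ+CD8+ cells. One spleen library per genotype, labelled as before HCT, was used as the untreated background. The tables hold receptor sequences only, so neither the deletion of Stat3 nor the CD8 identity could be checked in them.

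A TCR chain is assembled in the thymus from a V and a J segment, with a D segment between them in TCRB. The joined region encodes the complementarity determining region 3 (CDR3), the loop that reaches the peptide in the MHC groove, and cells descended from 1 T cell share it as a clonotype. In TCRA, a first join tends to use V-proximal TRAJ segments (high numbers) and later joins replace it with V-distal ones (low numbers), and in TCRB the 2 clusters TRBJ1 and TRBJ2 follow the TRBD1 and TRBD2 segments. STAT3 transmits signals of cytokines such as IL-6 and IL-21 and is not part of the recombination machinery.

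Each deposited value was the fraction that a clonotype took of its library's reads, for 59365 TCRA and 82447 TCRB clonotypes. Depth is unknown, so no intervals are given, and a value of 0 means only that a clonotype is listed at 0. The join kept a clonotype only if 2 or more libraries held it. Together the listed clonotypes took 92.8% ± 8.86 (SD, n = 4) of reads in WT and 92.9% ± 8.58 in STAT3ko TCRA, and 84.2% ± 20.6 and 85.5% ± 18.5 in TCRB, where gut number 2 was lowest at 53.2% (WT) and 58.0% (STAT3ko).

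The libraries of a genotype were not independent of each other. Overlap was measured by adding up, for every clonotype, the lower of its 2 frequencies. It was 33.6% in TCRB for liver 1 and gut 1 of a genotype and 35.9% for liver 2 and gut 1 (means of WT and STAT3ko). It was 8.23% for liver 1 and liver 2, 11.3% for gut 1 and gut 2, and 9.69% for liver 2 and gut 2. WT and STAT3ko libraries of the same tissue and number overlapped by 10.1% ± 2.39 (SD, n = 4). Gut 1 thus shared clonotypes with both liver libraries of its genotype, whose overlap with each other was no higher than that between genotypes. The library before HCT shared 40.4% with liver 1 and 22.5% with gut 1 of its genotype, against 6.78% with liver 2 and 6.55% with gut 2. No library was a copy of another, the highest Pearson r across clonotypes being 0.596 in TCRA and 0.462 in TCRB (clonotypes are not independent replicates). The p-values below treat the 4 pairs as separate although their libraries shared clonotypes. The labels do not say how many donors stand behind a genotype, so genotype and donor cannot be told apart.

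Clonality was compared first. The Shannon effective number of clonotypes, the number of equally frequent clonotypes with the same entropy, was lower in STAT3ko than in WT in 3 of 4 pairs of both tables, but not beyond the spread. In TCRB it was 4993, 6796, 10845 and 5192 in WT liver 1, liver 2, gut 1 and gut 2, and 4523, 5762, 11242 and 2985 in the STAT3ko libraries in the same order. The groups overlapped, and gut 1 was highest in both. The mean log2 ratio of STAT3ko over WT was −0.28 (pairs from −0.80 in gut 2 to 0.052 in gut 1; exact sign-swap permutation over 16 arrangements, two-sided p = 0.250, adjusted p = 0.6 over 60 single values). In TCRA it was 4363, 5975, 8524 and 5521 in WT and 4031, 4934, 8668 and 4014 in STAT3ko, with a mean log2 ratio of −0.21 (exact permutation p = 0.250, adjusted p = 0.6). Both means rested in part on gut 2, without which they were −0.11 in TCRB and −0.12 in TCRA. With only the 2000 most frequent clonotypes of each library they were −0.086 and −0.010. The number of listed clonotypes was also lower in STAT3ko, in 4 of 4 pairs in TCRA (mean log2 ratio −0.23, exact permutation p = 0.13, adjusted p = 0.6) and in 3 of 4 in TCRB (−0.21, exact permutation p = 0.250, adjusted p = 0.6). Its part in the Shannon values was not tested. The smallest p that 4 pairs allow is 0.13 (2 of 16 arrangements), so none of the 60 single values could pass. Of these, 6 were higher and 5 lower in STAT3ko in 4 of 4 pairs. The libraries before HCT ran the other way, with an effective number of 2044 in WT and 3297 in STAT3ko TCRB, and 1975 and 3157 in TCRA (1 library each, no test). These numbers cover only clonotypes that 2 or more libraries held, so levels before HCT and on day 6 cannot be compared. The paper describes T cells before HCT as highly diverse, and those in liver and gut on day 6 as much less so.

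**Figure D1:**
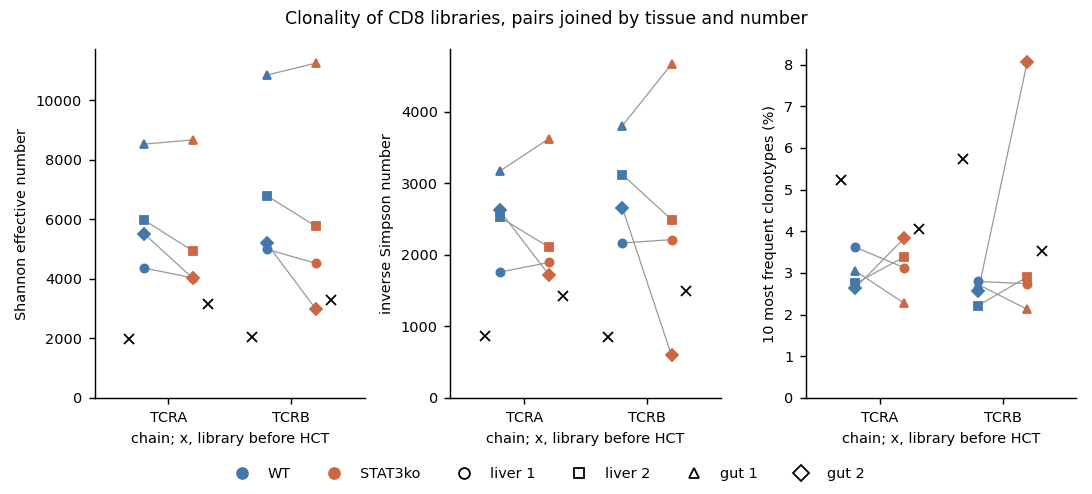
Shannon effective number, inverse Simpson number and percentage of listed frequency in the 10 most frequent clonotypes (y axes, all from 0) for TCRA and TCRB. Each point is a library, lines join WT (blue) and STAT3ko (orange) libraries of the same tissue and number, and crosses mark the WT (left) and STAT3ko (right) library before HCT. The STAT3ko gut 2 library stood apart in TCRB, with 8.07% of the frequency in its 10 most frequent clonotypes. All values cover listed clonotypes only, so the level of the crosses cannot be compared with that of the points.

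Measures that weigh large clonotypes more moved in both directions. The inverse Simpson number, the effective number when clonotypes are weighted by their square, was 2168, 3123, 3808 and 2659 in WT TCRB and 2214, 2495, 4671 and 595 in STAT3ko. It was thus higher in STAT3ko in liver 1 and gut 1 and lower in liver 2 and gut 2 (mean log2 ratio −0.54, exact permutation p = 0.625, adjusted p = 0.735). Without the gut 2 pair the mean log2 ratio was 0.00050. Clonality, 1 minus the Shannon evenness, was 0.0949 ± 0.0126 in WT and 0.102 ± 0.0134 (SD, n = 4) in STAT3ko TCRB, and 0.105 ± 0.0111 and 0.105 ± 0.00758 in TCRA. The 10 most frequent TCRB clonotypes held 2.795%, 2.22%, 2.72% and 2.56% of the listed frequency in WT and 2.74%, 2.90%, 2.13% and 8.07% in STAT3ko. The last value, that of gut 2, was the only one of the 8 above 3%. These measures cover listed clonotypes only, and the listed share of TCRB reads was lowest in gut 2.

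The most frequent listed TCRB clonotype of each library is shown by its CDR3 coding sequence as deposited. Clonotypes held by only 1 library were not listed, so a more frequent one could be absent. Capitals mark the codons between the first 4 and the last 4 residues. The most frequent TCRB clonotypes of the STAT3ko liver 1, liver 2 and gut 2 libraries all used TRBJ2-4, the first and second of them with TRBV29 and the third with TRBV13-3, whereas that of gut 1 paired TRBV14 with TRBJ2-2:
STAT3ko liver 1: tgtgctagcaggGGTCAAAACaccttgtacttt
STAT3ko liver 2: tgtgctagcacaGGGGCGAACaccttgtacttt
STAT3ko gut 1: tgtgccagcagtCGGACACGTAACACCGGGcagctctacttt
STAT3ko gut 2: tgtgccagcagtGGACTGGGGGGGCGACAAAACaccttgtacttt

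They held 0.328%, 0.666%, 0.328% and 3.08% of the listed frequency of their library. The gut 2 clonotype was listed in 1 other of the 8 libraries, WT gut 2, at 0.00994%. The liver 2 clonotype was listed at 0.0644% in STAT3ko gut 1 and at 0 in all 4 WT libraries, and the gut 1 clonotype at 0.00927% in STAT3ko liver 2 and at 0 in the WT libraries. The liver 1 clonotype was public, listed in 8 of 8 libraries, at 0.00128% to 0.0281% in WT. The most frequent clonotypes of the WT liver 1, liver 2 and gut 1 libraries used TRBV29 with TRBJ2-7, TRBV13-1 with TRBJ1-1 and TRBV14 with TRBJ2-5:
WT liver 1: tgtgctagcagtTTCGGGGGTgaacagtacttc
WT liver 2: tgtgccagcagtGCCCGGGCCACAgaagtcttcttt
WT gut 1: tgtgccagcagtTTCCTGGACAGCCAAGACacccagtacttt

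They held 0.4004%, 0.332% and 0.653%. The most frequent entry of WT gut 2, tatgctgagcaggagcagttcttc, lacked the first cysteine of a CDR3. It was assigned to TRBV21 with TRBJ2-1 and stood in 8 of 8 libraries, at 0.234% to 0.606% in WT and 0.244% to 0.539% in STAT3ko, and entered segment usage but neither length nor residue counts.

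In TCRA the 2 clonotypes with the highest mean in WT were also the 2 highest by mean in STAT3ko, and both joined TRAV16N to TRAJ22:
first: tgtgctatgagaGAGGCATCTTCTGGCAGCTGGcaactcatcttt
second: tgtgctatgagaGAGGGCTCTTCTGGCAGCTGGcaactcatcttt

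The first was listed at 0.298%, 0.688%, 0.344% and 0.286% in WT liver 1, liver 2, gut 1 and gut 2, and at 0.432%, 0.468%, 0.325% and 0.576% in the STAT3ko libraries. The second was listed at 0.246% to 0.316% in WT and 0.270% to 0.464% in STAT3ko. One or the other was the most frequent of WT liver 2 and of STAT3ko liver 1, gut 1 and gut 2. Other clonotypes were most frequent in WT liver 1, gut 1 and gut 2, where TRAV16N was joined to TRAJ30 (0.581%), TRAJ27 (0.489%) and TRAJ33 (0.394%), and in STAT3ko liver 2, where TRAV7N-6 was joined to TRAJ30 (0.513%). Before HCT the first was at 0.541% in WT and 0.548% in STAT3ko, and the second at 0.123% and 0.540%.

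Of 1803 features tested across segments, pairs, lengths, residues and shared clonotypes, 2 passed adjustment, both TRBJ segments. TRBJ usage, the percentage of listed frequency with each segment, was tested with limma on log2(percent + 0.1) with tissue and number as a block. Unless stated, limma fits used the 12 day 6 libraries of a table, the 4 STAT3koPD-1ko ones included. TRBJ2-4 was used more and TRBJ1-1 less in STAT3ko libraries, 2 of 12 segments (16.7%). TRBJ2-4 (chr6:41543362-41543410, plus strand, mm10) was at 6.37%, 6.75%, 7.25% and 6.85% in WT liver 1, liver 2, gut 1 and gut 2, and at 7.13%, 8.18%, 7.80% and 8.81% in STAT3ko. It was higher in STAT3ko in 4 of 4 pairs, with STAT3ko liver 1 below WT gut 1 (6.81% ± 0.364 against 7.98% ± 0.706, SD, n = 4; log2 difference 0.22, SE 0.0619, limma adjusted p = 0.0440). TRBJ1-1 (chr6:41533864-41533911, plus strand) was at 13.5%, 14.4%, 13.9% and 14.2% in WT and at 11.9%, 12.9%, 12.3% and 12.9% in STAT3ko. It was lower in 4 of 4 pairs and the groups did not overlap (log2 difference −0.17, SE 0.0509, limma adjusted p = 0.0440). Both differences were small beside the level of the segments, and the difference between gut and liver pairs did not pass for any segment (lowest limma adjusted p = 0.809).

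**Figure D2:**
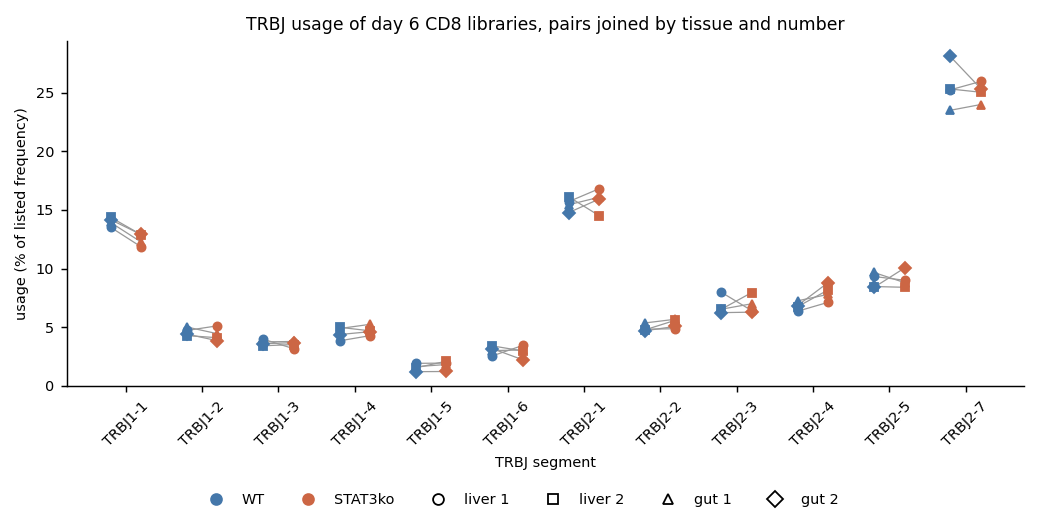
Usage of the 12 TRBJ segments (x axis) in percent of the listed frequency (y axis, from 0). Each point is a day 6 library, and lines join WT (blue) and STAT3ko (orange) libraries of the same tissue and number. TRBJ1-1 sloped down and TRBJ2-4 up in all 4 pairs.

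These calls were not stable. Without the block, 0 of 12 TRBJ segments passed (limma adjusted p = 0.0933 for TRBJ2-4 and 0.159 for TRBJ1-1), and with only the 8 WT and STAT3ko libraries 0 passed (limma adjusted p = 0.0753 for both). With 1 library left out at a time, TRBJ1-1 passed in none of 8 fits and TRBJ2-4 in 2, those without STAT3ko liver 1 and without STAT3ko gut 1, and 0 segments passed without WT liver 1, WT liver 2, WT gut 1, WT gut 2, STAT3ko liver 2 or STAT3ko gut 2. By number, the log2 difference of TRBJ2-4 was 0.13 in the number 1 pairs (limma adjusted p = 0.315) and 0.32 in the number 2 pairs (limma adjusted p = 0.0409), and that of TRBJ1-1 was −0.19 and −0.14 (limma adjusted p = 0.310 and 0.373).

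The size of the TRBJ2-4 difference in gut 2 turned on 1 clonotype. The largest TRBJ2-4 clonotype held 0.0849% to 0.201% of a WT library and 0.328%, 0.666%, 0.0950% and 3.08% of the STAT3ko libraries. With it left out of each library, TRBJ2-4 usage was 6.18%, 6.67%, 7.17% and 6.68% in WT and 6.82%, 7.57%, 7.71% and 5.91% in STAT3ko, so that gut 2 turned to a lower value in STAT3ko while the other 3 pairs stayed higher. With the 10 most frequent clonotypes of each library left out (chosen after seeing the data), usage was 6.55%, 6.91%, 7.46% and 6.84% in WT and 6.99%, 7.74%, 7.97% and 6.23% in STAT3ko. It was again higher in 3 of 4 pairs and lower in gut 2, with a log2 difference of 0.054 (SE 0.0534, limma adjusted p = 0.654). In gut 1 no TRBJ2-4 clonotype was among the 10 most frequent of either genotype. With each clonotype counted once, it was −0.00029, at 7.44% ± 0.116 in WT and 7.44% ± 0.154 in STAT3ko (SD, n = 4). The libraries before HCT held 6.12% (WT) and 6.09% (STAT3ko).

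The log2 difference of TRBJ1-1 was −0.13 (SE 0.0407, limma adjusted p = 0.0998) without the 10 most frequent clonotypes and −0.037 (SE 0.0235, limma adjusted p = 0.305) with each clonotype counted once, when 3 of 4 pairs were lower in STAT3ko. The libraries before HCT already differed in the same direction, at 13.6% in WT and 12.1% in STAT3ko (1 library each, no test).

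**Figure D3:**
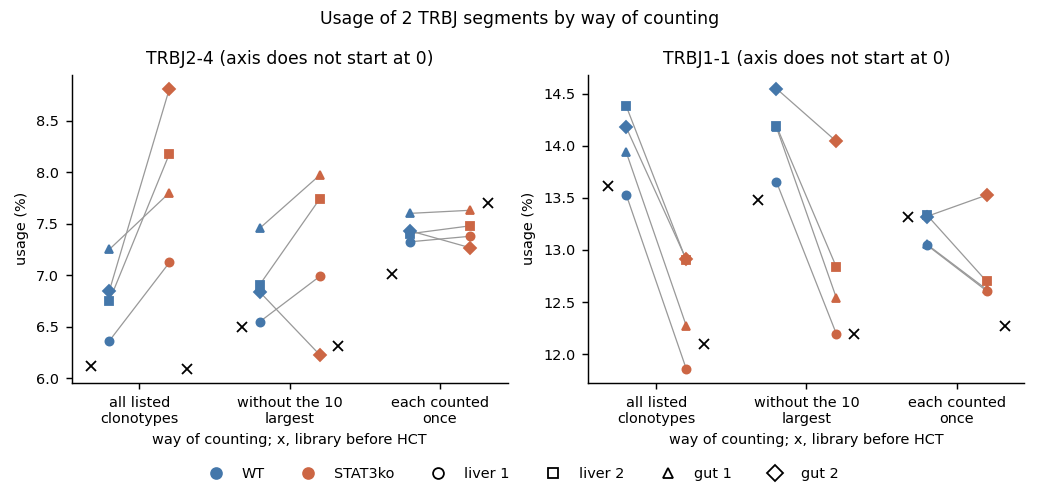
Usage (percent, y axis not from 0) of TRBJ2-4 and TRBJ1-1 over all listed clonotypes, without the 10 most frequent clonotypes of each library, and with each clonotype counted once. Points are libraries, lines join pairs of the same tissue and number, and crosses mark the WT (left) and STAT3ko (right) library before HCT. The TRBJ2-4 pairs lay near 7.44% in both genotypes when each clonotype counted once.

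The other 10 TRBJ segments did not pass. TRBJ1-5 and TRBJ2-2 were higher in STAT3ko in 4 of 4 pairs (1.57% ± 0.293 against 1.77% ± 0.384, log2 difference 0.15, and 4.92% ± 0.303 against 5.31% ± 0.395, log2 difference 0.11; SD, n = 4, limma adjusted p = 0.213 for both). Without STAT3ko liver 2 the TRBJ1-5 difference was 0.078 and without WT liver 2 it was 0.088, and that of TRBJ2-2 was 0.065 without WT liver 2. Differences of the other 8, TRBJ1-2, TRBJ1-3, TRBJ1-4, TRBJ1-6, TRBJ2-1, TRBJ2-3, TRBJ2-5 and TRBJ2-7, lay between −0.078 and 0.061 on the log2 scale. With 1 library left out, that of TRBJ1-2 ranged from −0.15 to −0.035, TRBJ1-4 from 0.0075 to 0.12 and TRBJ2-1 from 0.00028 to 0.081. With each clonotype counted once TRBJ1-4 alone passed, lower in STAT3ko (log2 difference −0.074, limma adjusted p = 0.0315), and TRBJ1-6 passed with TRBJ2-4 in the number 2 libraries and without the liver number 1 libraries (−0.34 and −0.22, limma adjusted p = 0.0409 and 0.0426). In the TRBJ1 cluster 1 of 6 segments passed, lower, and the median log2 difference was −0.059. In the TRBJ2 cluster 1 of 6 passed, higher, and the median was 0.024, against 0.017 over all 12. The TRBJ2 cluster as a whole held 69.5%, 68.0%, 67.8% and 69.1% of WT libraries and 70.2%, 69.7%, 69.4% and 71.5% of STAT3ko libraries. It was higher in STAT3ko in 4 of 4 pairs, by a mean of 1.62 percentage points (exact permutation p = 0.13, the smallest 4 pairs allow, adjusted p = 0.6). Among clonotypes with an assigned D segment, TRBD2, the one that precedes the TRBJ2 cluster, made up 39.8% ± 1.65 in WT and 40.4% ± 1.68 in STAT3ko (exact permutation p = 0.13, adjusted p = 0.6).

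TRAJ usage gave no call, 0 of 41 segments (0%), with 4 at an unadjusted p below 0.05. The 3 with the smallest p among those that moved the same way in all pairs were TRAJ6, TRAJ47 and TRAJ39. TRAJ6 was at 1.33% ± 0.231 in WT and 1.01% ± 0.121 in STAT3ko (SD, n = 4; log2 difference −0.36, SE 0.132), TRAJ47 at 1.58% ± 0.203 and 1.92% ± 0.161 (0.27, SE 0.102) and TRAJ39 at 1.59% ± 0.265 and 1.93% ± 0.427 (0.25, SE 0.0951), with a limma adjusted p of 0.308 for each. Without STAT3ko liver 1 the TRAJ47 difference was 0.16. With each clonotype counted once the 3 differences were −0.21, 0.026 and 0.055. By position, 0 of the 12 V-distal segments TRAJ2 to TRAJ20 passed, and their median log2 difference was −0.12. The median was 0.089 over the 14 V-proximal segments TRAJ40 to TRAJ58, of which 0 passed, and −0.024 over all 41. Summed, TRAJ2 to TRAJ20 held 27.9%, 25.4%, 27.0% and 26.1% of WT liver 1, liver 2, gut 1 and gut 2, and 23.8%, 23.3%, 24.5% and 25.0% of the STAT3ko libraries. All 4 STAT3ko libraries lay below all 4 WT libraries, by a mean of 2.46 percentage points (exact permutation p = 0.13, adjusted p = 0.6; permuted within tissue over 36 arrangements p = 0.0556, the smallest it allows). The libraries before HCT already stood at 29.4% in WT and 23.8% in STAT3ko. TRAJ40 to TRAJ58 held 22.7% ± 1.13 in WT and 23.9% ± 1.13 in STAT3ko, higher in 3 of 4 pairs (exact permutation p = 0.250, adjusted p = 0.6). The mean difference of 1.28 percentage points rested on liver 1, where it was 3.64, and was 0.5002 without either library of that pair.

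TRAV usage likewise gave no call, 0 of 41 segments (0%), with 5 higher and 2 lower at an unadjusted p below 0.05. TRAV17, TRAV4-3 and TRAV7-3 came nearest, each higher in STAT3ko in 4 of 4 pairs with a limma adjusted p of 0.0651 (TRAV7-3, 0.0652). TRAV17 (chr14:53806639-53807115) was at 0.388%, 0.405%, 0.489% and 0.282% in WT and 1.02%, 0.502%, 0.654% and 0.439% in STAT3ko (log2 difference 0.57, SE 0.161). TRAV4-3 (chr14:53598828-53599410) was at 0.497%, 0.469%, 0.476% and 0.440% in WT and 0.746%, 0.615%, 0.687% and 0.598% in STAT3ko (log2 difference 0.41, SE 0.116). TRAV7-3 (chr14:53443249-53443839) was at 0.980% ± 0.189 and 1.27% ± 0.0829 (SD, n = 4; log2 difference 0.35, SE 0.106). The groups did not overlap for TRAV4-3, and before HCT it was at 0.503% in WT and 0.798% in STAT3ko, whereas TRAV17 was at 0.395% and 0.445% there and TRAV7-3 at 1.35% and 1.26%. Without the 10 most frequent clonotypes of each library all 3 passed (log2 difference 0.45, 0.42 and 0.36, limma adjusted p = 0.0284 for each). TRAV7N-6 also passed there, as lower (−0.40), but the clonotypes left out included the most frequent one of STAT3ko liver 2, a TRAV7N-6 clonotype at 0.513%. Over all clonotypes its log2 difference was −0.029 (limma adjusted p = 0.961), higher in STAT3ko in 2 of 4 pairs. When each clonotype counted once, none of TRAV17, TRAV4-3 and TRAV7-3 passed (log2 differences 0.045, 0.023 and 0.035). TRAV17 was highest in STAT3ko liver 1, and without that library its log2 difference was 0.35 (limma adjusted p = 0.162). TRAV17 and TRAV4-3 passed without STAT3ko liver 2 (limma adjusted p = 0.0130 and 0.0403), and TRAV7-3 without WT liver 1 (limma adjusted p = 0.0391).

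TRBV usage gave 0 calls in 18 segments (0%), with 1 higher and 2 lower at an unadjusted p below 0.05. These were TRBV5 (higher), TRBV26 and TRBV1 (log2 difference −0.23, limma adjusted p = 0.185, lower in STAT3ko except in liver 1). Only segments with 1 direction in all pairs are described next, so 4 of 4 follows from that choice. TRBV17 thus stands here without an unadjusted p below 0.05. TRBV5 was at 4.03%, 4.46%, 2.60% and 3.28% in WT and 4.69%, 4.90%, 3.54% and 4.22% in STAT3ko, higher in 4 of 4 pairs (log2 difference 0.28, SE 0.107, limma adjusted p = 0.175). TRBV26 (1.199% ± 0.258 against 0.996% ± 0.252, log2 difference −0.25, limma adjusted p = 0.185) and TRBV17 (3.81% ± 0.425 against 3.36% ± 0.291, log2 difference −0.17, limma adjusted p = 0.392; SD, n = 4) were lower in 4 of 4. With each clonotype counted once the differences of TRBV5, TRBV26 and TRBV17 were 0.039, −0.12 and −0.015. That of TRBV26 was −0.16 without STAT3ko gut 2 and that of TRBV17 −0.10 without WT liver 2. TRBV5 and TRBV26 passed only in the fit of the 8 WT and STAT3ko libraries, with TRBV1 (log2 difference 0.28, −0.25 and −0.23).

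Among V-J pairs, 0 of 187 TCRA pairs (0%) and 0 of 163 TCRB pairs (0%) passed, with 24 and 14 at an unadjusted p below 0.05. In TCRA the joins nearest the threshold were TRAV7N-6 with TRAJ30, TRAV3D-3 with TRAJ17 and TRAV7-5 with TRAJ34. TRAV7N-6 with TRAJ30 was at 0.0293%, 0.114%, 0.0805% and 0.0490% in WT and 0.115%, 0.536%, 0.189% and 0.0954% in STAT3ko (log2 difference 1.33, SE 0.292, limma adjusted p = 0.151). Most of it was the most frequent TCRA clonotype of STAT3ko liver 2, which was listed in 8 of 8 libraries, at 0.0254%, 0.106%, 0.0708% and 0.0417% in WT and 0.110%, 0.513%, 0.179% and 0.0714% in STAT3ko:
TRAV7N-6 with TRAJ30: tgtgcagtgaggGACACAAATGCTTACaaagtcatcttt

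It was higher in STAT3ko in 4 of 4 pairs, and before HCT it was at 0.0126% in WT and 0.0755% in STAT3ko. The 2 other TCRA joins were lower in STAT3ko and did not overlap between the groups, at 0.177% ± 0.0450 against 0.0906% ± 0.0375 for TRAV3D-3 with TRAJ17 and 0.246% ± 0.0525 against 0.116% ± 0.0485 for TRAV7-5 with TRAJ34 (SD, n = 4; log2 difference −0.88 and −1.01, limma adjusted p = 0.159 for both). Without STAT3ko gut 2, TRAV7N-6 with TRAJ30 and TRAV7-5 with TRAJ34 passed (limma adjusted p = 0.0157 for both). In TCRB they were TRBV29 with TRBJ2-3 at 1.31% ± 0.401 in WT and 0.790% ± 0.113 in STAT3ko, TRBV5 with TRBJ2-2 at 0.0822% ± 0.0181 and 0.197% ± 0.0972, and TRBV29 with TRBJ1-5 at 0.442% ± 0.187 and 0.739% ± 0.225 (log2 difference −0.68, 1.01 and 0.74, limma adjusted p = 0.223 for each). Counting each clonotype once gave −0.027, −0.0050 and 0.0996 for these 3, and −0.38 and −0.097 for TRAV3D-3 with TRAJ17 and TRAV7-5 with TRAJ34. Without STAT3ko gut 2 the difference of TRBV5 with TRBJ2-2 was 0.64.

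To see whether the usage differences recurred, the STAT3ko minus WT log2 difference of each feature was taken in every pair of libraries and compared between pairs. Across the 163 TCRB V-J pairs, Pearson's r was 0.508 between the pair before HCT and liver 1, 0.364 between liver 2 and gut 1, 0.311 between liver 1 and gut 1 and 0.254 between the pair before HCT and gut 1. In these 4 of 10 pairings the libraries of a genotype overlapped by 22.5% to 40.4%. In the other 6, with overlaps of 6.55% to 11.3%, r lay between −0.16 and 0.153 with a median of −0.00068, and it was −0.043 between liver 1 and liver 2. Across the 187 TCRA V-J pairs, r was 0.207 to 0.515 in the same 4 pairings and −0.094 to 0.0903 in the other 6. For TRAJ segments (n = 41) the ranges were 0.313 to 0.765 and −0.21 to 0.15. For the 12 TRBJ segments the separation was incomplete: r was 0.149 to 0.670 in the first 4 and −0.47 to 0.473 in the other 6, with 0.473 between liver 2 and gut 2. TRBV segments were likewise not separated (0.297 to 0.435 and −0.33 to 0.490). The features share libraries and sum to a constant, so these values are descriptions without a test. No pairing was without shared clonotypes. In TCRA the libraries of a genotype overlapped by 30.04% to 45.3% in the first 4 pairings and by 16.9% to 27.3% in the other 6, so that the 2 ranges nearly met there.

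**Figure D4:**
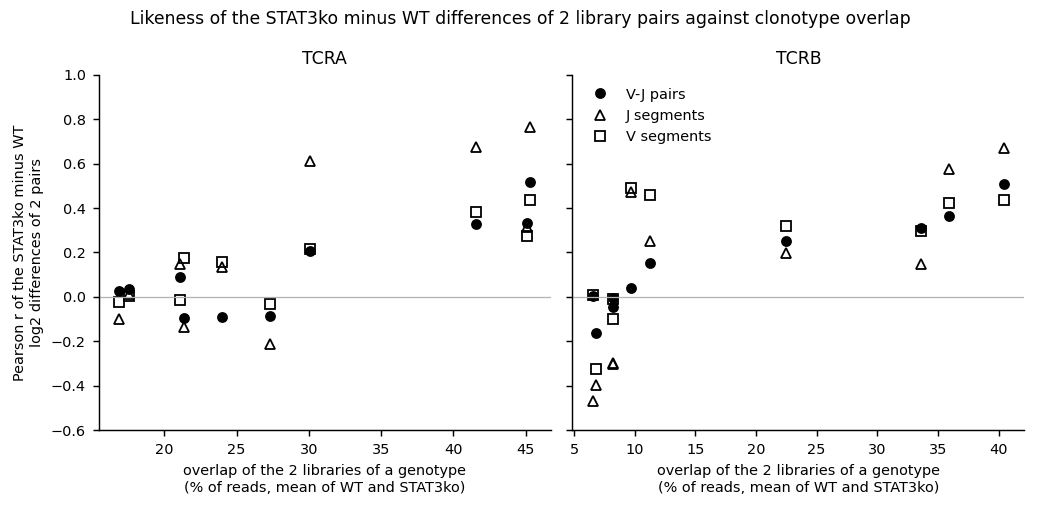
Pearson r across features of the STAT3ko minus WT log2 differences in 2 pairs of libraries (y axis) against the overlap of the 2 libraries of a genotype (x axis, percent of reads, mean of WT and STAT3ko), for the 10 pairings of liver 1, liver 2, gut 1, gut 2 and the libraries before HCT. Filled circles are V-J pairs, triangles J segments and squares V segments. For TCRB V-J pairs the 4 pairings with overlaps of 22.5% or more had r of 0.254 to 0.508, and the other 6 lay below 0.153 or at it.

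CDR3 length was compared over clonotypes that ran from cysteine to phenylalanine or tryptophan. No length class passed, 0 of 8 in TCRA (0%) and 0 of 8 in TCRB (0%), with 1 in each at an unadjusted p below 0.05. The mean TCRB length was 13.50, 13.48, 13.54 and 13.22 residues in WT liver 1, liver 2, gut 1 and gut 2, and 13.55, 13.50, 13.55 and 13.38 in STAT3ko. It was longer in STAT3ko in 4 of 4 pairs by a mean of 0.058 residues, with 0.154 in gut 2 and 0.00738 in gut 1, and by 0.0259 without gut 2 (exact permutation p = 0.13, adjusted p = 0.6). CDR3 of 16 residues or more made up 7.35%, 6.65%, 7.13% and 2.72% in WT and 8.41%, 7.51%, 7.83% and 3.29% in STAT3ko, higher in 4 of 4 pairs and lowest in gut 2 of both genotypes (mean difference 0.798 percentage points, exact permutation p = 0.13, adjusted p = 0.6). Class by class, 16 residues came nearest the threshold (4.78% ± 1.55 against 5.37% ± 1.55, log2 difference 0.18, limma adjusted p = 0.248), followed by 17 residues (0.943% ± 0.486 against 1.18% ± 0.672) and 15 residues (16.7% ± 1.56 against 18.04% ± 0.219; SD, n = 4, limma adjusted p = 0.248 for both). Without STAT3ko gut 2 the log2 difference of 16 residues was 0.11 and that of 15 residues fell from 0.12 to 0.047, and without STAT3ko liver 1 that of 17 residues fell from 0.22 to 0.13. Counted once per clonotype they were 0.026, 0.019 and 0.16 for 16, 15 and 17 residues, and the last passed (limma adjusted p = 0.0205). The TCRA mean was 13.65 ± 0.0797 residues in WT and 13.63 ± 0.0568 in STAT3ko (mean difference −0.021, from −0.036 to −0.012 with 1 library left out, exact permutation p = 0.375, adjusted p = 0.703). There the class of 12 residues came nearest, at 13.8%, 13.9%, 13.7% and 15.9% in WT and 14.7%, 15.6%, 16.002% and 15.9% in STAT3ko, higher in 3 of 4 pairs (log2 difference 0.12, SE 0.0392, limma adjusted p = 0.139). It passed without STAT3ko gut 2 (limma adjusted p = 0.00910), and with each clonotype counted once it was the class of 11 residues that passed, higher in STAT3ko (log2 difference 0.10, limma adjusted p = 0.0413). The classes of 16 residues (7.50% ± 0.900 against 7.12% ± 0.782) and 13 residues (23.4% ± 1.16 against 22.8% ± 1.43) followed (limma adjusted p = 0.757 for both).

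**Figure D5:**
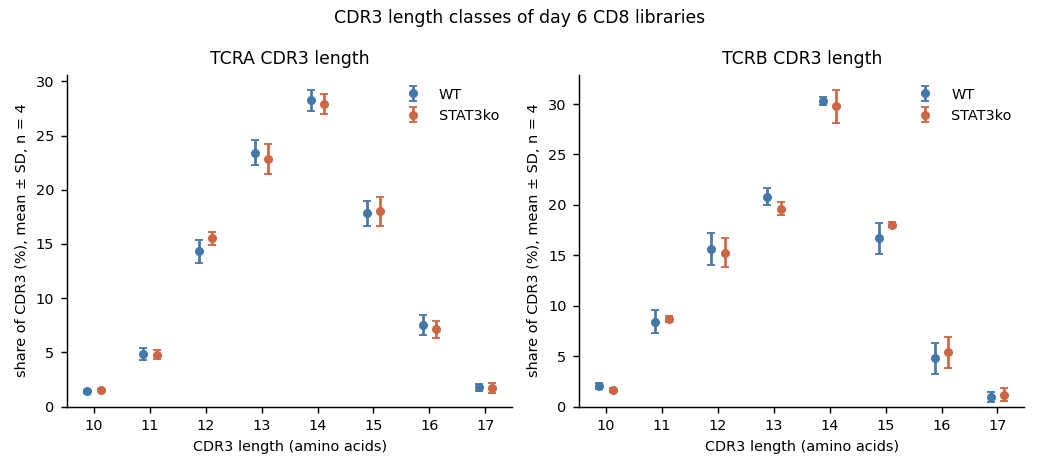
Percentage of CDR3 (y axis, from 0) in each length class in amino acids (x axis) for TCRA and TCRB. Points are the means of 4 WT (blue) and 4 STAT3ko (orange) day 6 libraries and bars their SD. The bars of the genotypes overlapped in most classes, as for 16 residues in TCRB, at 4.78% ± 1.55 and 5.37% ± 1.55.

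Central residues, those left after 4 were removed from each end, gave 0 calls among 20 amino acids in TCRA (0%) and 0 among 20 in TCRB (0%), with 3 and 0 at an unadjusted p below 0.05. Leucine, methionine and histidine passed in TCRA with each clonotype counted once, all lower in STAT3ko (log2 difference −0.078, −0.091 and −0.16, limma adjusted p = 6.6e-05, 0.00111 and 0.00863). Without STAT3ko gut 2, methionine passed as lower and lysine as higher (−0.17 and 0.17, limma adjusted p = 0.0355 and 0.0380). In TCRA, aspartate made up 3.93%, 3.85%, 3.82% and 3.82% of central residues in WT and 4.04%, 4.10%, 4.04% and 4.05% in STAT3ko. The groups did not overlap, but the difference was 0.07 on the log2 scale (SE 0.0257, limma adjusted p = 0.227). With aspartate, methionine (log2 difference −0.12) and valine (−0.15) had an unadjusted p below 0.05, each higher in STAT3ko in 1 of 4 pairs (limma adjusted p = 0.227 for both). Asparagine (16.3% ± 0.577 against 16.9% ± 0.221) was higher and phenylalanine (0.988% ± 0.0942 against 0.879% ± 0.118) lower in 4 of 4 pairs (SD, n = 4, limma adjusted p = 0.235 for both). Both were named for moving the same way in all pairs, and neither had an unadjusted p below 0.05. The asparagine difference was 0.048 on the log2 scale and 0.026 without WT liver 1, and that of phenylalanine −0.16, and −0.10 without STAT3ko gut 2. Mean hydropathy on the Kyte-Doolittle scale, on which higher values are more hydrophobic, was −1.16, −1.20, −1.18 and −1.22 in WT and −1.23, −1.22, −1.21 and −1.26 in STAT3ko TCRA. It was lower in 4 of 4 pairs, by a mean of 0.037 units (exact permutation p = 0.13, adjusted p = 0.6), and it was −1.16 in WT and −1.21 in STAT3ko before HCT. In TCRB it was −0.930 ± 0.0115 and −0.937 ± 0.0101 (exact permutation p = 0.5, adjusted p = 0.735). Glutamine (5.10% ± 0.0516 against 5.38% ± 0.247) and aspartate (8.20% ± 0.0825 against 7.93% ± 0.175) came nearest there, followed by glutamate (3.62% ± 0.179 against 3.79% ± 0.359; SD, n = 4, limma adjusted p = 0.607, 0.607 and 0.705). The log2 difference of glutamine was 0.077, and 0.039 without STAT3ko gut 2, and that of glutamate was 0.060, and 0.033 without STAT3ko liver 2.

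Features that have been tied to self-reactivity are a cysteine inside the CDR3 and a pair of hydrophobic residues at its middle (V, I, L, M, F, W, Y or C here). Neither differed beyond the spread, though 4 pairs allow no p that could pass. A central hydrophobic pair was present in 1.29% ± 0.450 of WT and 1.13% ± 0.130 of STAT3ko TCRB CDR3, and in 0.395% ± 0.161 and 0.352% ± 0.162 of TCRA CDR3 (SD, n = 4; exact permutation p = 0.625 and 0.750, adjusted p = 0.735 and 0.804). An internal cysteine was present in 2.90% ± 0.906 and 2.47% ± 0.786 of TCRB and in 0.129% ± 0.0630 and 0.244% ± 0.207 of TCRA CDR3 (exact permutation p = 0.250 and adjusted p = 0.6 for both). The mean TCRA difference was 0.115 percentage points, and 0.0234 without either library of the liver 2 pair.

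TRAV11 with TRAJ18, the join that invariant natural killer T cells use, was rare and lower in STAT3ko. It held 0.109%, 0.0217%, 0.131% and 0.0487% of WT liver 1, liver 2, gut 1 and gut 2 and 0.000840%, 0.00585%, 0.00407% and 0.00545% of the STAT3ko libraries. All STAT3ko values lay below all WT values (mean difference −0.073 percentage points, exact permutation p = 0.13, adjusted p = 0.6; within tissue p = 0.0556, the smallest allowed). The libraries before HCT differed in the same direction, at 0.0375% in WT and 0.000589% in STAT3ko (1 library each, no test). The values rested on 4 to 8 listed clonotypes in a WT library and 2 to 5 in a STAT3ko library, and the one with the highest mean, listed at 0.0507% in WT liver 1 and 0.0749% in WT gut 1 and at 0 in the other 2 WT libraries, was 14 residues long:
TRAV11 with TRAJ18: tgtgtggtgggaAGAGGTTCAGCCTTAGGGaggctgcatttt

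The chain typical of invariant natural killer T cells is 15 residues long, so the clonotype shown is not of that length. Clonotypes of 15 residues with this join held 0.0551%, 0.00550%, 0.0415% and 0.00501% of the WT libraries and 0.000560%, 0.00351% and 0.000624% of STAT3ko liver 1, liver 2 and gut 1, and were listed at 0 in STAT3ko gut 2.

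TRAV1 with TRAJ33, the join of mucosal-associated invariant T cells, was at 0.0218% ± 0.0104 in WT and 0.0119% ± 0.0163 in STAT3ko (SD, n = 4; exact permutation p = 0.375, adjusted p = 0.703), and was listed at 0 in STAT3ko liver 2. The libraries were sorted for CD8, a gate that removes most invariant natural killer T cells of mice, which are largely CD4+ or lack both coreceptors, and the tables do not show which cells these clonotypes came from.

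Single clonotypes were compared where all 12 day 6 libraries listed them, 962 in TCRA and 323 in TCRB. None passed, 0 of 962 (0%) and 0 of 323 (0%), with 100 and 33 at an unadjusted p below 0.05. The 2 nearest in each direction are shown as examples of public clonotypes. In TCRA those higher in STAT3ko joined TRAV4-4-DV10 to TRAJ34 and TRAV3-3 to TRAJ45, and those lower TRAV6-6 to TRAJ23 and TRAV7D-3 to TRAJ37:
TRAV4-4-DV10 with TRAJ34: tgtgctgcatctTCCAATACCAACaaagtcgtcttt
TRAV3-3 with TRAJ45: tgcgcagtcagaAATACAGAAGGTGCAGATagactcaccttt
TRAV6-6 with TRAJ23: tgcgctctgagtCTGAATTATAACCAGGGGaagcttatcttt
TRAV7D-3 with TRAJ37: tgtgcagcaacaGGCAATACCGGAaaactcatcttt

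The TRAV4-4-DV10 clonotype was listed at 0.0109%, 0.00130%, 0.00135% and 0.00390% in WT and 0.0159%, 0.0358%, 0.0309% and 0.104% in STAT3ko (log2 difference 3.64, SE 0.848). The TRAV6-6 clonotype was at 0.00658% to 0.0518% in WT and 0.00028% to 0.00522% in STAT3ko (log2 difference −3.80, SE 0.839). The log2 differences of the other 2 were 4.05 and −3.22, and the limma adjusted p was 0.215 for each of the 4. Without WT liver 1 the TRAV4-4-DV10 clonotype passed (log2 difference 4.64, limma adjusted p = 0.0399). Each moved the same way in 4 of 4 pairs, with the WT gut 2 library apart from the other WT libraries for the TRAV3-3 clonotype (0.0215%) and the TRAV7D-3 clonotype (0.361%). Before HCT the TRAV6-6 clonotype ran the other way, listed at 0 in WT and 0.00855% in STAT3ko. The other TCRA clonotypes shown differed there in the day 6 direction. In TCRB those higher in STAT3ko joined TRBV13-1 to TRBJ2-5 and TRBV29 to TRBJ2-7, and those lower TRBV29 and TRBV14 to TRBJ2-7:
TRBV13-1 with TRBJ2-5: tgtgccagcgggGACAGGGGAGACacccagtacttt
TRBV29 with TRBJ2-7, higher: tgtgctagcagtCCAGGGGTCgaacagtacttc
TRBV29 with TRBJ2-7, lower: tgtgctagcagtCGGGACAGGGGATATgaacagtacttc
TRBV14 with TRBJ2-7: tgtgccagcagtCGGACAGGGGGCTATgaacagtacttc

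Their log2 differences in this order came to 3.63, 3.37, −3.15 and −3.04 (limma adjusted p, 0.13, 0.13, 0.13 and 0.147), and in each the STAT3ko and WT libraries did not overlap. The TRBV29 clonotype that was higher in STAT3ko was also higher before HCT, at 0.0904% against 0.00233%. The lower TRBV29 clonotype was at 0.0132% in WT and listed at 0 in STAT3ko before HCT.

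The share of a day 6 library's listed frequency that lay in clonotypes also listed before HCT in its genotype was given last. Reads of clonotypes not listed are left out. The listed share of TCRB reads differed between libraries and was lowest in gut 2, so levels cannot be compared between libraries as shares of reads. In TCRB the share in clonotypes listed before HCT was 84.0%, 17.4%, 44.8% and 27.8% in WT liver 1, liver 2, gut 1 and gut 2, and 86.8%, 20.2%, 48.1% and 30.4% in STAT3ko. It was higher in STAT3ko in 4 of 4 pairs, by 2.85 percentage points on average (exact permutation p = 0.13, adjusted p = 0.6), and the spread between libraries of a genotype was far larger. The STAT3ko library before HCT listed 11700 TCRB clonotypes and the WT one 8949. In TCRA the shares were 56.5% ± 20.5 and 58.4% ± 20.3 (SD, n = 4).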

How the data were processed

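The members and the lists of segments, residues and clonotypes were chosen with earlier results of these data known. RNA of sorted cells was amplified with a TCR profiling kit, and per the study's methods clonotypes were called with MiXCR and joined with VDJtools. The deposited values are fractions of the reads of a library, formed by the authors before the join, which lists clonotypes of at least 2 libraries; 3 further libraries of each join and the CD4 tables were not analysed here. The labels name the mm10 build. The deposited positions of V and J ends gave the number of bases between V and J, 1 of the single values in each table, and the deposited number of libraries with a clonotype gave a filter. Segment coordinates came from GENCODE vM21.

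Frequencies were divided by their sum in a library. Usage was tested with limma 3.58.1 (R 4.3.3) on log2(percent + 0.1) for segments and lengths with a mean of at least 0.5% and for residues, or log2(percent + 0.02) and 0.1% for V-J pairs, and log2(percent) for clonotypes listed in all 12 day 6 libraries. The 12 included 4 STAT3koPD-1ko libraries for the spread, with genotype and a block for each tissue and number. Benjamini-Hochberg adjustment ran over all features of one kind in a table, with a threshold of 0.05. Fold changes on this scale understate rare features. Single values were compared by exact two-sided sign-swap permutation over 4 pairs. Alternatives changed the block, libraries, clonotype weighting, pseudocount and filters. Scripts were tested on simulated data.

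The block assumes that numbers pair the genotypes. Deviations of same-numbered WT and STAT3ko libraries from their group means correlated, across V-J pairs, by 0.12 (liver) and −0.064 (gut) in TCRA and by 0.0416 and 0.470 in TCRB, so the numbers did not pair the samples in every case. Named were features past the threshold, or else the 3 smallest p, of those with 1 direction in all pairs where there were 3; every TRBJ segment; the 2 most frequent clonotypes of a genotype; and the 2 shared clonotypes nearest the threshold in each direction. The most frequent clonotype of each library and of TRAV11 with TRAJ18 were chosen after their values were seen. The study's methods name 2 batches of samples, each combining 3 mice. They do not say whether numbers 1 and 2 are these batches, and no separate donors are named, so p-values measure the spread between these samples.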

Additional observations from a re-analysis of the deposited data

Results flagged for a closer look

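In groups of 4 libraries, a value was marked where its gap to the nearest other was, as a share of the range of its group, above Dixon's critical value. This applied to 13 of 146 groups, and chance marks about 1 in 20. Most concerned gut 2. In WT gut 2 they were the shares of TCRB CDR3 of 16 residues or more (2.72%) and of 16 residues (2.47%), of TCRA CDR3 of 12 residues (15.9%) and of TRAJ6 (0.986%), and the TRAV3-3 with TRAJ45 clonotype (0.0215%) and the TRAV7D-3 with TRAJ37 clonotype (0.361%). In STAT3ko gut 2 they were the share of the 10 most frequent TCRB clonotypes (8.07%), the TCRB CDR3 of 16 residues (3.07%) and TRAV7-5 with TRAJ34 (0.189%). The listed share of reads was also lowest in gut 2 of both genotypes, at 53.2% and 58.0% in TCRB. Its part in these values was not tested.

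The other 4 were TRBV26 in WT gut 1 (1.59%) and STAT3ko gut 1 (1.37%), TRBJ2-3 in WT liver 1 (7.98%) and TCRB hydropathy in WT liver 1 (−0.947).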

How the results depend on the processing

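Over 232 alternative counts of calls, 196 stayed within 1.5 times the main count, 15 fell below it and 21 rose above it. Causes were not tested. Except for TRBJ segments the main count was 0, so that staying meant staying at 0. For TRBJ segments 5 of 20 alternatives kept the count, some of them with TRBJ1-6 in place of TRBJ1-1. The tables give no depth, 4 pairs allow no exact p under 0.05, and libraries of a genotype share clonotypes, so small differences are not resolved.

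Without the replicate block, 0 TRBJ segments passed. 0 also passed with the 8 WT and STAT3ko libraries, number 1 libraries only or without the 10 most frequent clonotypes (added after seeing the data), and 1 with each clonotype counted once (TRBJ1-4, lower), with clonotypes of at least 3 libraries (TRBJ1-1) or as percent of all reads (TRBJ2-4). The block changed no other count of calls. The other counts that moved from 0 were as follows. Number 1 only gave 1 TRAJ segment, 1 TCRB residue and 3 shared TCRB clonotypes. TRAV segments gave 3 without the liver number 1 libraries, 4 without the 10 most frequent clonotypes and 1 with no filter. TRBV segments gave 3 with the 8 libraries. Each clonotype counted once gave 1 TCRA length, 3 TCRA residues and 1 TCRB length, and TCRB lengths gave 1 with number 2 only and 1 with no filter.

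With 1 library left out at a time, calls ranged from 0 to 1 for TCRA lengths and TRBJ, and from 0 to 2 for TRAJ, TRAV, TCRA V-J pairs, TCRA residues and shared TCRA clonotypes. The TCRA differences ranged from −0.00316 to 0.00234 in clonality, −0.25 to 0.013 in log2 inverse Simpson number, −0.212 to 0.448 in the 10 most frequent clonotypes and −0.126 to 0.0496 in central hydrophobic pairs. In TCRB they ranged from −0.13 to 0.028 for TRBJ1-3, −0.18 to 0.066 for TRBJ1-6, −0.057 to 0.12 for TRBJ2-3, −0.061 to 0.065 for TRBJ2-5 and −0.045 to 0.013 for TRBJ2-7, and from −0.000611 to 0.0109 in clonality, −0.82 to 0.00050 in log2 inverse Simpson number and −0.300 to 0.0118 in hydrophobic pairs.

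Values that changed sign were, without the 10 most frequent clonotypes, TRBJ2-1 (−0.0035). With 3 residues removed from each end they were TCRB glutamate (−0.018) and hydropathy (0.000732). With clonotypes of at least 3 libraries they were TRBJ1-3 (0.034), TRBJ2-5 (−0.029) and the TRBD2 share (−0.233). With each clonotype counted once they were TCRA CDR3 of 13 residues (0.0022), TRBJ2-4 (−0.00029), TRBJ1-4 (−0.074), TRBJ2-1 (−0.024), TRBJ2-7 (0.018), TRBV5 with TRBJ2-2 (−0.0050), TCRB aspartate (0.0087) and TCRA internal cysteine (−0.0522). With number 1 only they were TRBJ1-6 (0.22), TRBJ2-7 (0.035), TRBJ2-3 (−0.11), TRBJ2-5 (−0.092), the inverse Simpson number (0.15 in TCRA, 0.16 in TCRB), the 10 most frequent clonotypes (−0.639 and −0.324), TCRB clonality (−0.00335) and TCRB hydropathy (0.00153). With number 2 only they were TCRA CDR3 of 13 residues (0.0062), TRBJ1-4 (−0.0054), TRBJ1-3 (0.038), TRBJ2-1 (−0.022), TCRA clonality (0.00499) and hydrophobic pairs (0.145 in TCRA, 0.188 in TCRB). As percent of all reads it was TRBJ2-7 (0.010). Without the liver number 1 libraries they were TRBJ1-3 (0.029), TCRA clonality (0.00234) and hydrophobic pairs (0.0496 and 0.0118).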
